A study of Mus musculus with 24 samples.

Results

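Whole mouse embryos homozygous for a Setd2 allele named catalytic dead (CD) were compared with heterozygous and wild-type embryos of the same line. There were 2 homozygous libraries (CD HO) and 4 controls, of which 2 were heterozygous (CD HE) and 2 wild type (CD WT). These were chosen by their titles and are 6 of the 24 libraries of the series. A further 6 embryo libraries, 2 each of HO, HE and WT from a Setd2 null line, entered the same fit to estimate the spread and for a test of the difference between alleles. Every embryo was of the C57BL/6 strain and was harvested at embryonic day 9.5. Messenger RNA from TRIzol extracts was sequenced on an Illumina NovaSeq. The labels do not say which residue is mutated, how either allele was made, which litters the embryos came from or whether embryos were pooled. The p-values therefore measure the spread between these libraries, which may be technical.

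SETD2 is the enzyme that places trimethylation on lysine K36 of histone H3 (H3K36me3) along transcribed gene bodies, where readers of the mark link it to DNA methylation, splicing, mismatch repair and the silencing of start sites inside genes. It also acts on proteins other than histones. The embryo at this stage is laying down somites and closing its neural tube while its heart and primitive blood circulate, so whole-embryo RNA is a sum over many growing tissues. A lower level of a cell type's transcripts in such RNA cannot tell fewer cells from less RNA per cell.

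Total counts were 23414255 to 27674831 per embryo library. Levels are given as CPM, the count scaled to the size of its library, and changes as log2 fold changes of CD HO over the mean of CD HE and CD WT. The adjusted p-values come from edgeR's quasi-likelihood test with Benjamini-Hochberg adjustment over the 19215 genes tested, and a gene passing 0.05 is called higher or lower. Both CD HO libraries and CD HE replicate 1 carried Xist at 1266 to 2024 CPM, and Y-linked transcripts summed to 0.677 CPM or less in them. CD HE replicate 2 and both CD WT libraries had the male pattern. Sex and genotype therefore cannot be told apart between CD HO and CD WT, and the counts of many lists are also given against CD HE replicate 1, the only control of the same sex. CD WT replicate 2 stood apart from the other controls in several groups of genes. Its median log2 deviation from the mean of the controls was 0.22 for hypoxia and glycolysis, -0.58 for early neurons and -0.79 for globins. Each of these had the sign of both CD HO libraries, while that of collagens, -0.33, did not. Its visceral endoderm transcripts were high: 11 marker genes summed to 1060 CPM in it, against 229 to 355 CPM in the other 5 libraries. Most of the sum in CD HO came from 1 marker, Lrp2, which neural epithelium also makes (309.8 and 343 CPM in CD HO, 168 to 280.2 CPM in the controls).

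Setd2 (ENSMUSG00000044791, mm10 chromosome 9, 110532597 to 110618633) was not called different in CD HO embryos. It was at 218 and 213 CPM in CD HO, 222 and 231 CPM in CD HE and 224 and 255 CPM in CD WT. The CD HO libraries lay just below all 4 controls, and the difference did not pass (log2 change -0.11, SE 0.06, edgeR adjusted p = 0.194). A total count does not show whether the transcript carries the mutation.

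Over all genes, 4845 of 19215 were called (25.2%), 2318 higher (12.1%) and 2527 lower (13.2%) in CD HO. Changes of 2-fold or more were called for 574 genes higher (2.99%) and 432 lower (2.25%). Most changes were small, with a median log2 change of 0.54 among the genes called higher and -0.40 among those called lower, while the median over all genes tested was 0.01. Both CD HO libraries lay above all 4 controls for 4195 genes (21.8%) and below them for 4344 (22.6%). Against the same-sex control alone, 722 genes were called higher (3.76%) and 1041 lower (5.42%), and 4841 of the 4845 genes kept their direction. The 4845 genes had been called with the same CD HO libraries and with this control among the 4. Their agreement in direction was therefore largely built in and does not test the part of sex. Against CD WT alone 1330 were higher (6.92%) and 1757 lower (9.14%), and against CD HE alone 1960 (10.2%) and 2292 (11.9%). Leaving out 1 of the CD HO libraries gave 1055 higher and 1353 lower (replicate 1 out) or 950 and 1170 (replicate 2 out).

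**Figure D1:**
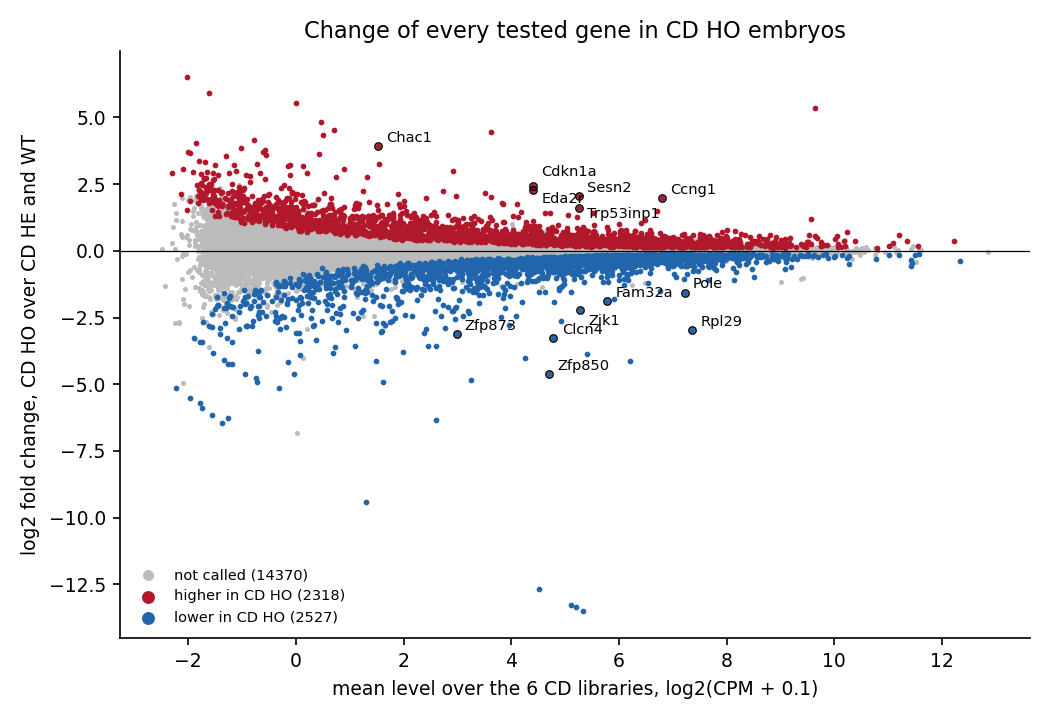
Each point is 1 of the 19215 genes tested: its mean level over the 6 CD libraries on the x axis, as log2(CPM + 0.1), and its log2 change in CD HO over CD HE and WT on the y axis. Red marks the 2318 genes called higher and blue the 2527 called lower. The lowest points, near -13, are Y-linked genes.

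Of the 12 annotated genes of smallest p that were higher by 1 log2 unit or more, 7 belong to the list of targets that the tumour suppressor p53 is known to activate. Ccng1, the cyclin G1 gene, had 222 and 223 CPM in CD HO, 56.4 and 60.8 CPM in CD HE and 60.1 and 46.7 CPM in CD WT (log2 change 1.99, SE 0.098, edgeR adjusted p = 1.18e-07). Both CD HO libraries were far above the 4 controls, which lay close together. The death receptor gene Eda2r had 43.3 and 46.7 CPM in CD HO, 8.36 and 9.45 CPM in CD HE and 11 and 8.25 CPM in CD WT (log2 change 2.28, SE 0.12, edgeR adjusted p = 2.39e-07). Trp53inp1, which encodes a nuclear protein of the p53 pathway, rose by 1.62 and Tnfrsf10b, the TRAIL receptor gene, by 1.44. Cdkn1a, which encodes the cell cycle inhibitor p21, had 42.4 and 49.2 CPM in CD HO, 8.797 and 7.94 CPM in CD HE and 8.67 and 8.83 CPM in CD WT (log2 change 2.42, SE 0.18, edgeR adjusted p = 4.99e-06). Its CD HO levels were again apart from every control. Pmaip1, the gene of the BCL2 antagonist NOXA, rose by 1.76, and the remaining list member, Sesn2, by 2.04. Zfp365, a zinc finger gene that is not on the list, rose by 2.16. Of the others, Foxo3, a forkhead factor regulated by growth signals, was at 96.4 and 96.9 CPM in CD HO, against 43.6 to 52.98 CPM in the 4 controls, and Cnnm1, which encodes a membrane protein of the cyclin M family, at 7.38 and 7.58 CPM in CD HO, against 1.59 to 1.96 CPM in the 4 controls. The long non-coding RNA gene Trp53cor1, which lies beside Cdkn1a and was picked out after its values were seen, was at 2.297 and 2.57 CPM in CD HO, against 0.072 to 0.358 CPM in the 4 controls.

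By role, the p53 list of 48 tested targets held 27 genes called higher and 8 lower, with a median log2 change of 0.33. Among all genes tested 12.1% were called higher and 13.2% lower, so the lower calls of the list were near that share. Of 17 cell death genes, 15 were higher and 1 lower, with a median of 0.53. Their members range from death receptors and BCL2 family proteins (Bbc3, Bax, Pmaip1) to the apoptosome gene Apaf1. Of 12 genes of feedback and cell cycle arrest, 6 were higher, among them Zmat3 (1.05), an RNA-binding protein, and Gtse1 (0.74), a regulator of p53 in the cell cycle, while Plk3, Sfn and Rprm were lower. Of 19 genes of repair and metabolism, 6 were higher and 4 lower. Polk, a translesion DNA polymerase, had 29.02 and 27.5 CPM in CD HO, 16.2 and 16.2 CPM in CD HE and 17.3 and 17.7 CPM in CD WT (log2 change 0.75, SE 0.088, edgeR adjusted p = 0.000134), and the carnitine palmitoyltransferase gene Cpt1c rose by 0.88 and the lipase gene Abhd4 by 0.57. Against the same-sex control 17 of the 48 were higher and 2 lower, and with a sex term in the fit 22 and 0. The 8 lower calls were 1 or 2 with replicate 1 or replicate 2 of CD HO left out, and 5 or 4 with replicate 1 or replicate 2 of CD HE left out.

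The p53 site, a pair of 10-base motifs at most 13 bases apart, was searched on both strands in the 250 bases before the start of each RefSeq promoter (GRCm38.p6). Of the 27 targets called higher 22 had a promoter in the table, and 1 of these held the site in that window (4.55%). It was 0 of 17 list members tested and not called higher, and 0.0635% of the 12605 genes tested that had a promoter. The called target with the site was Cdkn1a, so that the 4.55% rests on 1 gene. There the site starts 73 bases before the start of the transcript (chr17:29090729-29090978, plus strand, site in capitals). A window without the letters says nothing of binding elsewhere.
Cdkn1a: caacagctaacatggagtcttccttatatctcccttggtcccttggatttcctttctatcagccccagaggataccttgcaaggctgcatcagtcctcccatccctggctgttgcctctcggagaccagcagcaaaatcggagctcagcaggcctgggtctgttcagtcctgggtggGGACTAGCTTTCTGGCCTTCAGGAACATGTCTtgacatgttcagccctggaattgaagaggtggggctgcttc

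**Figure D2:**
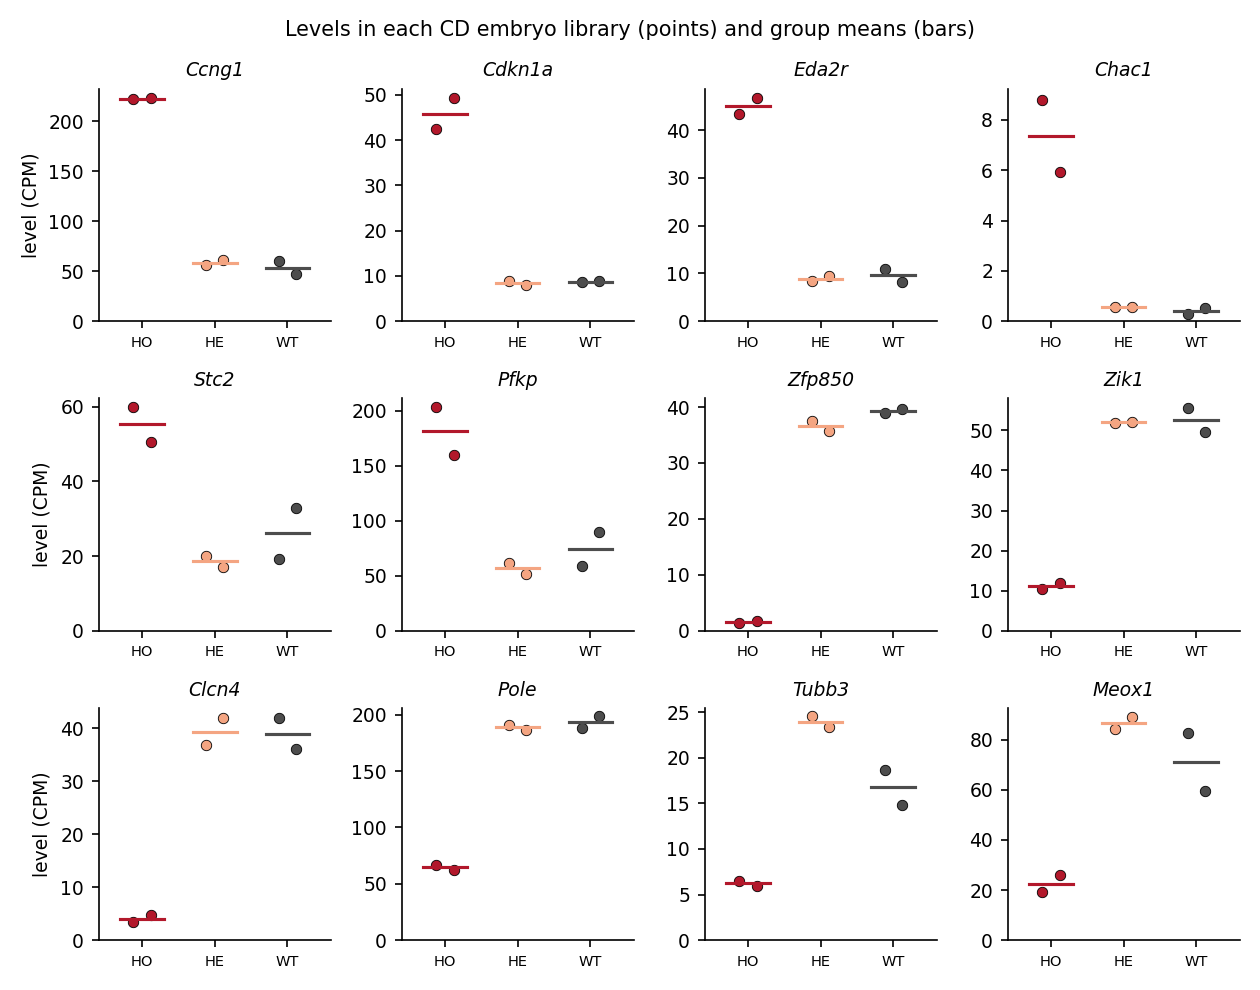
Levels in CPM of 12 genes in each CD embryo library, by genotype, with HO left of HE and WT; points are libraries and bars are means of 2. The first 6 genes are higher and the last 6 lower in both HO libraries than in all 4 controls.

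Genes of the stress response driven by ATF4, the transcription factor that cells make when translation initiation is throttled, were the next group to rise. Of 58 tested, 34 were called higher and 2 lower, with a median of 0.26, beside 12.1% and 13.2% of all genes tested. Chac1, which degrades glutathione, had 8.805 and 5.92 CPM in CD HO, 0.557 and 0.575 CPM in CD HE and 0.281 and 0.541 CPM in CD WT (log2 change 3.92, SE 0.29, edgeR adjusted p = 4.99e-06). Its level was low in all 4 controls. Sesn2, a sensor of leucine and stress that is also a p53 target, was at 72.7 and 80.9 CPM in CD HO, against 17.2 to 21.03 CPM in the 4 controls (log2 change 2.04, SE 0.12, edgeR adjusted p = 5.15e-07). The secreted glycoprotein gene Stc2 rose by 1.33 and Eif4ebp1, an inhibitor of cap-dependent translation, by 0.78. Of 16 regulators 10 were higher, with a median of 0.71, and Atf4 itself was among them while Atf5 was lower.

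Amino acid supply moved in smaller steps. Of 11 transporters 6 were higher and 1 lower. Slc7a3, a carrier of cationic amino acids, had 18.1 and 13.2 CPM in CD HO, 3.34 and 2.803 CPM in CD HE and 3.81 and 5.21 CPM in CD WT (log2 change 2.07, SE 0.16, edgeR adjusted p = 8e-06), and its relative Slc7a1 rose by 0.76 and the neutral carrier gene Slc1a4 by 0.69. Slc43a1, a carrier of large neutral amino acids, fell by 0.53. Of 17 enzymes of amino acid and one-carbon metabolism 9 were higher, including asparagine synthetase, Asns, at 137 and 104 CPM in CD HO, 80.05 and 80.98 CPM in CD HE and 77.9 and 68.4 CPM in CD WT (log2 change 0.65, SE 0.11, edgeR adjusted p = 0.00165). CD HO replicate 1 was the higher of the pair for Asns, Slc7a3, Slc1a4 and Slc7a1. Pck2, the mitochondrial phosphoenolpyruvate carboxykinase, rose by 0.88, the alanine transaminase gene Gpt2 by 0.81 and cystathionine beta-synthase, Cbs, by 1.02. Of 14 genes of tRNA charging 9 were higher and none lower, each by little: Nars rose by 0.33, Gars by 0.31, Lars by 0.28 and Tars by 0.28, the synthetases for asparagine, glycine, leucine and threonine. The 34 calls became 17 against the same-sex control and 19 without CD HO replicate 1.

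The core of the C/EBP-ATF response element, TGATGNAA, was searched on both strands in the same windows. Of the 34 genes called higher 26 had a promoter in the table and 10 of them held the motif (38.5%), against 3 of 19 members that were tested and not called higher (15.8%) and 2.4% of all tested genes with a promoter. The windows below show 4 of them, 5′ to 3′ on the gene's strand, with the motif or its reverse complement in capitals. Chac1 has it 193 bases before the start (chr2:119350992-119351241, plus strand), Asns 23 bases before it (chr6:7693210-7693459, minus strand), Pck2 103 bases before it (chr14:55540016-55540265, plus strand), and Slc7a11, the cystine carrier of the glutathione pathway, holds it in both orientations (chr3:50443614-50443863, minus strand). Slc7a11 was at 10.3 and 6.73 CPM in CD HO, 5.02 and 5.21 CPM in CD HE and 6.02 and 4.42 CPM in CD WT (log2 change 0.72, SE 0.18, edgeR adjusted p = 0.0135). A match describes letters in a window and not a site that was shown to be bound.
Chac1: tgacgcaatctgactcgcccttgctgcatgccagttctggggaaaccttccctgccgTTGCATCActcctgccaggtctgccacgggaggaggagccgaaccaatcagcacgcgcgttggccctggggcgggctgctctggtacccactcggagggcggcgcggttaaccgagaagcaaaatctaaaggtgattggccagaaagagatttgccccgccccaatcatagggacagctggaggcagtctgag
Asns: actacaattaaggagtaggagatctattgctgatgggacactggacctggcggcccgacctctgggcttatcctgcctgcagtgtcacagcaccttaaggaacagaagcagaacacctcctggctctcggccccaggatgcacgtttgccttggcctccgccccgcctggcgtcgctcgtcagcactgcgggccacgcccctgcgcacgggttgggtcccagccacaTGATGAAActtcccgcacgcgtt
Pck2: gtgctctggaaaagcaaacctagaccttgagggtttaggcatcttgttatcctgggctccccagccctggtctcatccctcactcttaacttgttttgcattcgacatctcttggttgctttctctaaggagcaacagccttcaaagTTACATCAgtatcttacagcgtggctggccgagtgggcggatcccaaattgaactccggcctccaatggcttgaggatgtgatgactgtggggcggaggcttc
Slc7a11: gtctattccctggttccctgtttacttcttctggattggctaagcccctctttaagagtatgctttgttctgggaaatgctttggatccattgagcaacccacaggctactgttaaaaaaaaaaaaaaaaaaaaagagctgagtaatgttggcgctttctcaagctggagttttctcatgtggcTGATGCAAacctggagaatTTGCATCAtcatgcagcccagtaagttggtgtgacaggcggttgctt

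Hypoxia and glycolysis genes were mostly called higher. Of 44 tested, 35 were called higher and 0 lower, with a median of 0.45, beside 12.1% and 13.2% of all genes tested. Pfkp, the platelet form of phosphofructokinase, had 203 and 159.6 CPM in CD HO, 61.5 and 51.6 CPM in CD HE and 58.6 and 90.05 CPM in CD WT (log2 change 1.49, SE 0.13, edgeR adjusted p = 1.98e-05). P4ha2, a collagen prolyl hydroxylase, rose by 0.89, the oxygen sensor gene Egln3 by 0.94, the carbonic anhydrase gene Car9 by 1.30 and Ddit4, an inhibitor of mTOR that ATF4 also induces, by 1.43. Hk2, the hexokinase of growing tissue, had 406 and 399 CPM in CD HO, 243 and 218 CPM in CD HE and 236 and 354 CPM in CD WT (log2 change 0.63, SE 0.11, edgeR adjusted p = 0.00174). CD WT replicate 2 was the highest control for Hk2, Pfkp, Egln3 and Ddit4. The abundant enzymes aldolase A, Aldoa, and enolase, Eno1, moved less: Aldoa had 1416 and 1273 CPM in CD HO, 924 and 862 CPM in CD HE and 878 and 1036 CPM in CD WT (log2 change 0.54, SE 0.082, edgeR adjusted p = 0.000736) and Eno1 rose by 0.36. Of the 28 genes of the hypoxia response 23 were higher, and of the 16 glycolytic enzymes 12. Without CD WT replicate 2 the list count was 36, without CD HO replicate 1 it was 15, and against the same-sex control it was 18 with 0 lower.

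**Figure D3:**
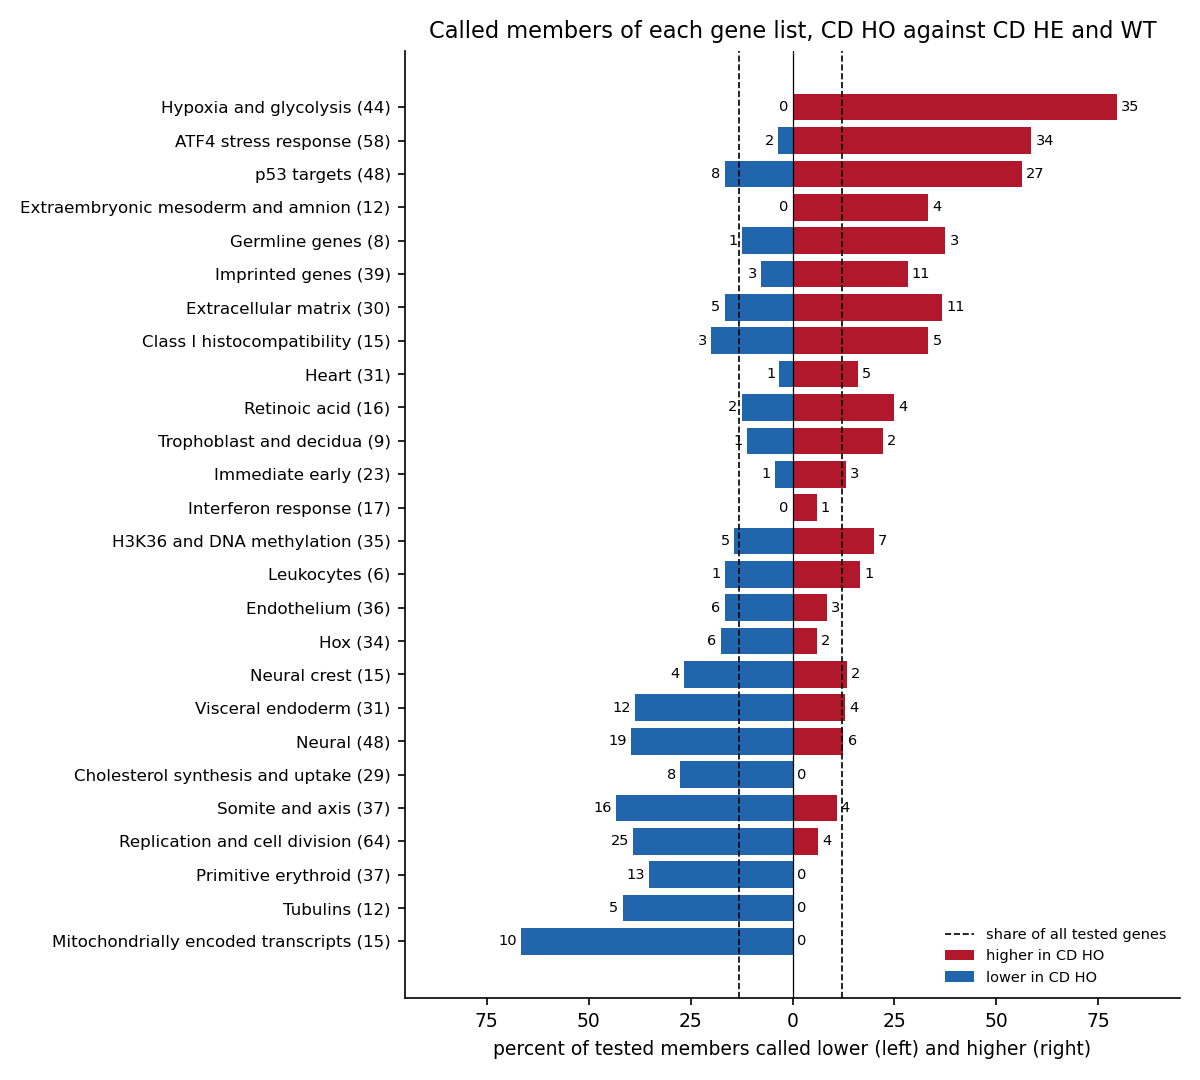
Percent of the tested members of each gene list called higher (right, red) or lower (left, blue) in CD HO against CD HE and WT; the number tested is in brackets, the number called stands at each bar, and dashed lines mark 12.1% and 13.2% of all genes tested. Hypoxia and glycolysis, the ATF4 response and p53 targets extend furthest right, and mitochondrially encoded transcripts furthest left.

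Genes of somites that are past their formation fell, while genes of the tissue from which somites bud had a few calls in each direction. Of 19 genes of somite differentiation 12 were lower and 0 higher, with a median of -0.67. Meox1, a homeobox gene of early somites, had 19.2 and 25.9 CPM in CD HO, 84.2 and 89.1 CPM in CD HE and 82.7 and 59.4 CPM in CD WT (log2 change -1.81, SE 0.23, edgeR adjusted p = 0.000269). Its relative Meox2 was at 0.766 and 0.515 CPM in CD HO, 7.88 and 10.1 CPM in CD HE and 9.11 and 3.75 CPM in CD WT (log2 change -3.55, SE 0.46, edgeR adjusted p = 0.000271). Pax1, which patterns the sclerotome, fell by 2.25 and Uncx, which marks the caudal part of each somite, by 2.53. All 4 were lowest in the CD HO pair and, among controls, lowest in CD WT replicate 2. Of 18 genes of the presomitic mesoderm and its clock, 4 were lower and 4 higher, beside 13.2% and 12.1% of all genes tested. The Notch ligand genes Dll1 and Dll3 fell by 0.77 and 0.83, the segment boundary gene Mesp2 by 2.23 and the Notch feedback gene Nrarp by 0.85, whereas Hes1, Fgf8, Cdx2 and Cyp26a1 were higher. These counts were 2 lower and 2 higher against the same-sex control, 2 and 1 with the sex term, and 5 and 0 with replicate 2 of CD HO left out. The 12 calls of somite differentiation were 8 against the same-sex control, 7 with the sex term, and 6 or 9 with replicate 1 or replicate 2 of CD HO left out.

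Early neurons were marked by lower transcripts as well. The counts of the lists below stand beside 12.1% higher and 13.2% lower of all genes tested. Of 24 genes of neurogenesis and young neurons 13 were lower and 0 higher, with a median of -1.18. Tubb3, the neuronal tubulin, had 6.51 and 5.96 CPM in CD HO, 24.5 and 23.4 CPM in CD HE and 18.7 and 14.8 CPM in CD WT (log2 change -1.68, SE 0.11, edgeR adjusted p = 2.24e-06). Ebf2, a factor of neuronal differentiation, fell by 1.67, Elavl4, a neuronal RNA-binding protein, by 1.52 and the homeobox gene Onecut2 by 0.90. In each of these 4, CD WT replicate 2 was the lowest control and both CD HO libraries were lower still. Without CD WT replicate 2 the count was 17 lower and 1 higher, and with CD HO replicate 2 left out it was 7 lower and 0 higher. Leaving out CD WT replicate 1 gave 10 lower with a median of -0.49, and against the same-sex control 9 lower. Regulators of the neural tube and brain went both ways, 6 higher and 6 lower of 24, with 3 higher when either CD HO library was left out and 9 without CD WT replicate 2. Wnt1, a signal of the midbrain boundary and the roof plate, had 14.2 and 18.7 CPM in CD HO, 6.85 and 8.77 CPM in CD HE and 6.101 and 7.29 CPM in CD WT (log2 change 1.18, SE 0.17, edgeR adjusted p = 0.00043), and Irx3, a homeobox factor of the neural tube, rose by 0.63. Fabp7, a lipid carrier of radial glia, fell by 2.41 and nestin, Nes, an intermediate filament of neural progenitors, by 0.85. Of 12 tubulin genes 5 were lower and 0 higher, including Tubb2b (-0.86), Tuba1a (-0.54) and Tuba4a (-0.97). Among 15 neural crest genes Twist1 (-0.98), Tfap2b (-0.85), Snai2 (-0.79) and the neuregulin receptor Erbb3 were lower and Dlx5 (0.76) was higher.

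Blood, vessel and heart genes differed in how far they could be told from the spread. Of 37 primitive erythroid genes 13 were lower and 0 higher, with a median of -0.92, yet none of the 7 globin genes was called. Hba-x, an embryonic alpha-type globin, had 210.4 and 579 CPM in CD HO, 879 and 1213 CPM in CD HE and 763 and 451 CPM in CD WT (log2 change -1.01, SE 0.72, edgeR adjusted p = 0.334), so that CD HO replicate 2 lay among the controls. With the sex term its change was 0.48, and that of the related Hbb-bh1 was 0.39, against -1.04 as reported. Kel, a blood group protein gene, had 1.38 and 3.43 CPM in CD HO, 11.2 and 14.3 CPM in CD HE and 11 and 5.58 CPM in CD WT (log2 change -2.11, SE 0.44, edgeR adjusted p = 0.00439), and the transferrin receptor gene Tfrc had 243 and 269 CPM in CD HO, 312 and 320.5 CPM in CD HE and 319 and 293 CPM in CD WT (log2 change -0.28, SE 0.071, edgeR adjusted p = 0.0131). The CD HO libraries were apart from each other in red cell transcripts, with 587 and 1542 CPM summed over 6 erythroid markers, against 2542 and 3499 CPM in CD HE and 2187 and 1117 CPM in CD WT. The 13 calls became 0 with CD HO replicate 1 left out, 14 with replicate 2 left out, 8 without CD WT replicate 1, 5 without CD HE replicate 2, 1 against the same-sex control and 0 with the sex term. Of 36 endothelial genes 3 were higher and 6 lower, against 12.1% and 13.2% of all genes tested. It was 0 and 4 against the same-sex control, 0 and 5 with the sex term and 5 and 9 without CD WT replicate 2. Gja5, the arterial connexin, fell by 1.58, the Notch target Heyl by 1.79 and endomucin, Emcn, by 0.88, while Flt1, a VEGF receptor gene, rose by 0.32. Of 31 heart genes 5 were higher and 1 lower, against 12.1% and 13.2% of all genes tested. Among them were cardiac actin Actc1 (0.24), troponin T Tnnt2 (0.46) and the calcium release channel Ryr2 (0.45), with the natriuretic peptide gene Nppa lower (-1.37). The higher heart genes numbered 1 without CD WT replicate 1 or CD HE replicate 1, and 0 without CD HE replicate 2 or either CD HO library. None was higher and 1 was lower against the same-sex control, and with the sex term it was 0 and 3, with a median of 0.17 as reported and -0.04 with the term.

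Secreted carriers of the visceral endoderm were lower in CD HO with and without CD WT replicate 2. These are genes of the yolk sac epithelium, which secretes carriers and takes up maternal proteins. Counts of this tissue's genes stand beside 12.1% higher and 13.2% lower of all genes tested. Of 15 secreted carriers 8 were lower and 0 higher, with a median of -2.08. Afp, the alpha-fetoprotein gene, had 2.22 and 0.643 CPM in CD HO, 13.5 and 12.7 CPM in CD HE and 17.5 and 68.2 CPM in CD WT (log2 change -4.01, SE 0.7, edgeR adjusted p = 0.00174). Trf, transferrin, had 0.574 and 0.686 CPM in CD HO, 4.74 and 4.24 CPM in CD HE and 7.91 and 17.5 CPM in CD WT (log2 change -3.58, SE 0.39, edgeR adjusted p = 7.54e-05), and Apob, an apolipoprotein of lipid export, had 4.9 and 3.002 CPM in CD HO, 26.7 and 22.6 CPM in CD HE and 39.5 and 347 CPM in CD WT (log2 change -4.11, SE 0.88, edgeR adjusted p = 0.00555). CD HO was lowest and CD WT replicate 2 highest for each, but the other 3 controls also lay above CD HO. Without CD WT replicate 2 the changes were -3.37 for Afp, -3.24 for Trf and -2.97 for Apob, and 9 carriers were lower and 2 higher. Without CD WT replicate 1, 13 carriers were lower and 1 higher. Of the 15 carriers, 2 were lower against the same-sex control, 3 with the sex term, 5 without CD HE replicate 2, and 4 or 2 with replicate 1 or replicate 2 of CD HO left out. Endocytic and regulatory genes of that tissue were split, 4 higher and 4 lower of 16, but 3 and 0 against the same-sex control or with the sex term, 2 and 0 without CD HO replicate 1, and 8 and 4 without CD WT replicate 2. Lrp2, the endocytic receptor megalin, had 309.8 and 343 CPM in CD HO, 176 and 168 CPM in CD HE and 176 and 280.2 CPM in CD WT (log2 change 0.72, SE 0.13, edgeR adjusted p = 0.00178). Npnt, a matrix ligand of integrin, rose by 0.55, and the zinc carrier Slc39a8 and the microvillus protein Vil1 fell by 0.54 and 1.72. The part of attached yolk sac in these values was not tested.

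Keratin and basement membrane genes were among those that rose. Of 12 genes of amnion and extraembryonic mesoderm 4 were higher and 0 lower. Their median was 0.30 as reported and 0.01 with the sex term. The keratin gene Krt8 had 233 and 251 CPM in CD HO, 146 and 132 CPM in CD HE and 157 and 211 CPM in CD WT (log2 change 0.60, SE 0.11, edgeR adjusted p = 0.00239), its partner Krt18 rose by 0.59, Krt19 by 0.83 and the growth factor gene Bmp4 by 0.37. With the sex term Bmp4 was at 0.22 and did not pass (edgeR adjusted p = 0.186). Of 14 basement membrane genes 8 were higher and 1 lower, and 5 were higher with either CD HO library left out. Lama5, Lamb1 and Lamc1, which encode laminin chains, were at 0.78, 0.58 and 0.55, and Lamb1 had 410.1 and 423 CPM in CD HO, 262 and 264 CPM in CD HE and 276 and 315 CPM in CD WT (log2 change 0.58, SE 0.055, edgeR adjusted p = 2.98e-05). Collagens were split: Col18a1 (0.51) and Col4a5 (0.38), of basement membranes, rose, and Col2a1 (-0.60), of cartilage and notochord, and Col26a1 (-0.77) fell. Of 9 tested genes of trophoblast and decidua 2 were higher and 1 lower, and of 6 leukocyte genes 1 and 1. Of all genes tested 12.1% were higher and 13.2% lower. The defining markers of both were low, with 3 leukocyte markers summing to 0.515 to 2.29 CPM over the 6 libraries. The 4 trophoblast markers summed to 8.35 and 7.42 CPM in CD HO, 3.90 and 6.11 CPM in CD HE and 7.67 and 4.25 CPM in CD WT.

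Many replication and division genes fell, Pole and Hjurp by more than the others. Of 64 tested 25 were lower and 4 higher, with a median of -0.13, beside 13.2% lower and 12.1% higher of all genes tested. Pole, which encodes the large subunit of DNA polymerase epsilon (chromosome 5, 110286306 to 110337474), had 66.4 and 62.7 CPM in CD HO, 191 and 187 CPM in CD HE and 188 and 199 CPM in CD WT (log2 change -1.57, SE 0.063, edgeR adjusted p = 4.79e-08). Hjurp, the chaperone that loads the centromeric histone CENP-A, had 226 and 216 CPM in CD HO, 429 and 410.4 CPM in CD HE and 442 and 471 CPM in CD WT (log2 change -0.99, SE 0.046, edgeR adjusted p = 9.6e-08). Among the smaller falls were those of the kinetochore genes Cenpk (-0.79), Knl1 (-0.40) and Nuf2 (-0.23), the nucleotide enzymes Tk1 (-0.53) and Tyms (-0.28) and the helicase subunit Mcm7 (-0.37). In mismatch and recombination repair 4 of 14 were lower, among them Fanca at -0.45, Rad54l at -0.47 and Pms2. Against the same-sex control 11 of the 64 were lower and 1 higher. The 25 lower calls were 12 or 10 with replicate 1 or replicate 2 of CD HO left out and 14 without CD HE replicate 2.

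Zinc finger genes were prominent among the losses. Among genes with a Zfp symbol, which names vertebrate zinc finger proteins and includes many KRAB repressors of retroelements, 129 of 350 tested were called lower (36.9%) and 31 higher (8.86%). They made up 5.1% of all genes called lower and 1.82% of genes tested. Zfp850 (chromosome 7, 27984854 to 28014115) had 1.38 and 1.72 CPM in CD HO, 37.4 and 35.6 CPM in CD HE and 38.9 and 39.6 CPM in CD WT (log2 change -4.62, SE 0.14, edgeR adjusted p = 3.19e-09). Zik1, a KRAB zinc finger gene on the same chromosome, had 10.3 and 12.01 CPM in CD HO, 51.8 and 52.2 CPM in CD HE and 55.7 and 49.7 CPM in CD WT (log2 change -2.23, SE 0.092, edgeR adjusted p = 4.89e-08). Zfp873 on chromosome 10 was at 1.24 and 1.302 CPM in CD HO, against 10.3 to 12.2 CPM in the 4 controls and Zfp26 on chromosome 9 at 46.1 and 51.9 CPM in CD HO, against 135 to 145 CPM in the 4 controls. In all 4 genes the pairs of CD HE and CD WT libraries lay close to each other and far above CD HO. Zkscan5, a zinc finger gene with a SCAN domain, fell by 1.93. With replicate 1 or replicate 2 of CD HO left out, 95 or 76 Zfp genes were lower and 13 or 20 higher. Zinc finger genes sit in clusters of related copies, so reads shared between copies make the level of each uncertain.

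The balance varied by chromosome. On chromosome 17, 27 of 41 Zfp genes were lower and 0 higher, on chromosome 7 it was 43 and 1 of 87, and on chromosome 10, 4 and 1 of 5. Zfp760, on chromosome 17, had 8.04 and 5.53 CPM in CD HO, 36.4 and 43.3 CPM in CD HE and 45.8 and 43.1 CPM in CD WT (log2 change -2.63, SE 0.16, edgeR adjusted p = 7.89e-07), and its neighbours Zfp948 and Zfp229 fell by 2.43 and 1.21. On chromosome 4, 13 of 26 were higher and 2 lower. The 7 that rose 2-fold or more (Zfp980, Zfp987, Zfp981, Zfp989, Zfp988, Zfp985 and Zfp534) all started between 145670685 and 147673502. Zfp981 had 2.95 and 2.02 CPM in CD HO, 0.159 and 0.359 CPM in CD HE and 0.442 and 0.375 CPM in CD WT (log2 change 2.90, SE 0.37, edgeR adjusted p = 0.00023) and Zfp988 had 1.57 and 1.42 CPM in CD HO, 0 and 0.144 CPM in CD HE and 0.12 and 0.25 CPM in CD WT (log2 change 3.61, SE 0.5, edgeR adjusted p = 0.000398). Both were nearly silent in every control and stayed under 3 CPM in CD HO. Against the same-sex control 9 Zfp genes of chromosome 4 were higher and 1 lower, and on the other chromosomes 71 were lower and 6 higher. These chromosome 4, 10 and 17 genes were picked out after their values were seen, and the difference between chromosomes was not tested.

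**Figure D4:**
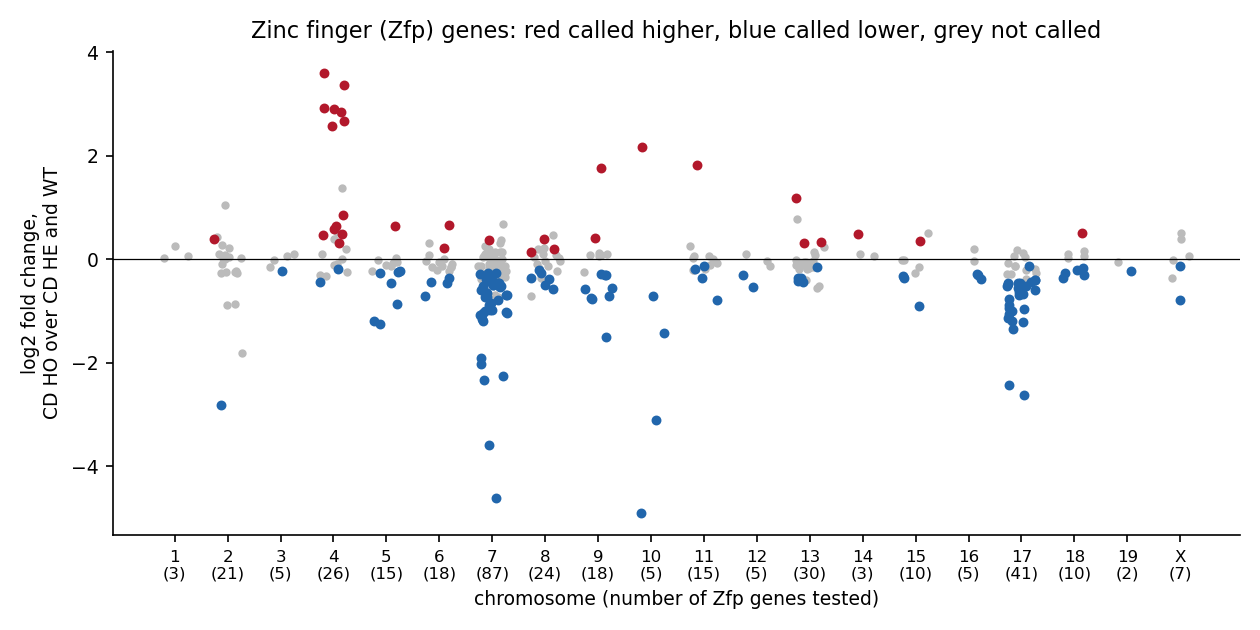
Log2 change in CD HO over CD HE and WT of 350 Zfp genes, by chromosome, each point 1 gene; red is called higher, blue called lower and grey not called, and points are spread sideways at random. Chromosomes 7 and 17 hold 43 and 27 genes called lower, while 7 genes of chromosome 4 stand 2-fold or more above 0.

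Other stretches with many called genes were looked for in windows of 2 Mb, by a rule set after the values were seen: 5 or more genes changed 2-fold or more in 1 direction. There were 24 such windows, 15 of them with falling genes. Of these 24, 1 falling window is on chromosome Y (1 to 2000000) and 1 rising window on chromosome X (102000001 to 104000000) holds Xist and Tsix, so both move with the sex of the libraries. On chromosome 12 all 9 genes tested between 22000001 and 24000000 fell 2-fold or more, as did 8 of 9 between 18000001 and 20000000. They were mostly predicted genes, and 2410018L13Rik, a non-coding RNA among them, had 0.995 and 0.686 CPM in CD HO, 6.65 and 5.82 CPM in CD HE and 7.75 and 8.71 CPM in CD WT (log2 change -3.07, SE 0.2, edgeR adjusted p = 1.45e-06). On chromosome 4 between 154000001 and 156000000, 23 of 53 genes were lower and 3 higher. Acap3, a GTPase activator, had 3.37 and 2.96 CPM in CD HO, 19.9 and 23.6 CPM in CD HE and 22.8 and 20.6 CPM in CD WT (log2 change -2.78, SE 0.13, edgeR adjusted p = 9.88e-08), its neighbour Pusl1, a pseudouridine synthase gene, fell by 2.45 and the matrix protein gene Mxra8 by 2.16. Clcn4, a chloride transporter gene on chromosome 7, lay in a window with 5 Zfp genes lower 2-fold or more and had 3.37 and 4.803 CPM in CD HO, 36.9 and 41.9 CPM in CD HE and 41.9 and 36.1 CPM in CD WT (log2 change -3.27, SE 0.15, edgeR adjusted p = 8.19e-08). Of the remaining genes of smallest p that fell, Fam32a, a gene of the splicing machinery, was at 18.6 and 20.9 CPM in CD HO, against 69.5 to 73.7 CPM in the 4 controls, and Atp5j2, a subunit of the mitochondrial ATP synthase, was at 38.8 and 41.5 CPM in CD HO, against 78.1 to 85.5 CPM in the 4 controls and lies next to Zkscan5 on chromosome 5. Clcn4, Pusl1, Zfp26 and Zfp873 overlap other annotated genes, whose reads may be counted with theirs.

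By gene class the balance differed. Of 14928 protein-coding genes 2003 were higher (13.4%) and 2347 lower (15.7%). Of 588 long intergenic RNA genes it was 76 (12.9%) and 46 (7.82%), of 764 antisense genes 63 (8.25%) and 22 (2.88%), and of 91 non-coding genes at bidirectional promoters 15 (16.5%) and 2 (2.2%). Over all genes below a mean of 1 CPM 8.3% were higher and 3% lower, against 16.3% and 21.3% of those at 100 CPM or more. The sources used here do not say whether counting used strand, so reads of an antisense gene and its partner cannot be told apart.

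Genes of the mark's own machinery had calls in both directions. Of 35 tested writers, erasers and readers of H3K36 methylation and DNA methyltransferases 7 were higher and 5 lower, with a median of 0.06. Over all genes tested the shares were 12.1% higher and 13.2% lower. With the sex term 1 of the 35 was higher and 3 were lower. Of the other H3K36 methyltransferases Nsd3 (-0.25), Nsd2 (-0.17) and Ash1l (-0.19) were lower. The demethylase genes Kdm4b (0.40), Kdm4c (0.33) and Kdm2b (0.23) were higher. Iws1, an elongation factor that binds SETD2, had 139 and 144 CPM in CD HO, 169.7 and 179 CPM in CD HE and 186 and 186 CPM in CD WT (log2 change -0.35, SE 0.044, edgeR adjusted p = 0.000189), the histone chaperone gene Supt6 rose by 0.20 and Zmynd11, a reader of the mark, fell by 0.18. Dnmt3b, the DNA methyltransferase that reads H3K36me3, had 139.5 and 178 CPM in CD HO, 94.3 and 96.2 CPM in CD HE and 100.5 and 163 CPM in CD WT (log2 change 0.50, SE 0.15, edgeR adjusted p = 0.0256), with CD WT replicate 2 inside the CD HO range. Against the same-sex control 2 of the 35 were higher and 1 lower. The 7 higher calls were 1 to 4 with any 1 of the CD HO or CD HE libraries or CD WT replicate 1 left out.

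Germline, imprinted and class I genes had calls in both directions, beside 12.1% higher and 13.2% lower of all genes tested. Of 8 germline genes tested 3 were higher and 1 lower, and 1 and 0 against the same-sex control, with the sex term or with either CD HO library left out. Tdrd1, of the piRNA pathway, had 8.19 and 6.35 CPM in CD HO, 2.71 and 3.85 CPM in CD HE and 4.01 and 4.33 CPM in CD WT (log2 change 0.97, SE 0.16, edgeR adjusted p = 0.001), and Ddx4 (0.97), Piwil2 (1.58) and Mov10l1 (-1.19, lower) were under 3 CPM in all 6 libraries and lost their calls in each of those 4 settings. Of 39 imprinted genes 11 were higher and 3 lower. With 1 of the CD HO or CD HE libraries left out, 6 or 7 were higher, and against the same-sex control it was 3 higher and 2 lower. Igf2r, the clearance receptor of IGF2, had 1041 and 984 CPM in CD HO, 651 and 645 CPM in CD HE and 712 and 789 CPM in CD WT (log2 change 0.54, SE 0.099, edgeR adjusted p = 0.00228). Nnat, a membrane proteolipid of neural tissue, fell by 0.97, Magel2 rose by 0.86 and Impact by 0.25. Among 15 class I histocompatibility genes 5 were higher and 3 lower. H2-K1 had 3.18 and 3.99 CPM in CD HO, 7.29 and 7.26 CPM in CD HE and 10.8 and 9.204 CPM in CD WT (log2 change -1.26, SE 0.15, edgeR adjusted p = 0.000155), while H2-Q6 (0.91), H2-Q7 (0.79) and H2-Q4 (0.79) were higher. The counts were 1 higher and 2 lower against the same-sex control, where H2-Q7 was at 0.23 (edgeR adjusted p = 0.464). Class I genes are near copies of each other, so these levels are uncertain. Of 17 interferon response genes Trim25 alone was called (0.92).

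Cholesterol enzymes and mitochondrially encoded transcripts were among the groups with no member called higher. Of 21 cholesterol enzymes 8 were lower and 0 higher, whereas the uptake and regulatory genes had no call: Srebf2, the transcription factor of the pathway, was at 211 and 222 CPM in CD HO, against 214 to 236 CPM in the 4 controls. Tm7sf2, a sterol reductase gene that overlaps Vps51, had 4.44 and 3.99 CPM in CD HO, 12.2 and 12.2 CPM in CD HE and 13.1 and 11.9 CPM in CD WT (log2 change -1.55, SE 0.12, edgeR adjusted p = 5.27e-06), and Acat2, Nsdhl and Dhcr7 fell by 0.84, 0.67 and 0.44. The 8 calls were 5 without CD HO replicate 1 and 14 with the sex term. Of 15 mitochondrially encoded transcripts 10 were lower and 0 higher, with a median of -0.40. Cytochrome b, mt-Cytb, had 1969 and 2198 CPM in CD HO, 2924 and 3108 CPM in CD HE and 3087 and 3216 CPM in CD WT (log2 change -0.57, SE 0.05, edgeR adjusted p = 1.9e-05), and mt-Co1, mt-Nd1 and mt-Nd4 fell by 0.40, 0.45 and 0.48. Summed over the 15, the level was 14514 and 15193 CPM in CD HO and 19280 to 20022 CPM in the 4 controls. The lists that follow stand beside 12.1% higher and 13.2% lower of all genes tested. Of 16 retinoic acid signalling genes 4 were higher and 2 lower. It was 0 and 1 with replicate 2 of CD HO left out and 2 and 1 against the same-sex control. The binding protein gene Crabp2 fell by 1.09, while the degrading enzyme Cyp26c1 rose by 0.32 and the receptor Rarg by 0.29. Neither rise passed with 1 of the CD HO or CD HE libraries left out, and Rarg was at 0.09 against CD WT alone (edgeR adjusted p = 0.631). Of 34 Hox genes 2 were higher and 6 lower, including Hoxd4 (-0.60), Hoxb9 (-0.45) and Hoxb7 (-0.42), and against the same-sex control 1 and 0. The 6 lower Hox calls were 0 to 3 with any 1 of the CD HO or CD HE libraries left out and 10 without CD WT replicate 2. Of 23 immediate early genes, which respond fast to handling and signals, 3 were higher and 1 lower: Egr2 (1.45), Spry2 (0.47), Klf6 (0.34) and Klf2 (-0.68). It was 1 and 0 against the same-sex control, and with replicate 1 or replicate 2 of CD HO left out 2 and 0 or 1 and 1, beside 12.1% and 13.2% of all genes tested.

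The gene of smallest p in the comparison was Rpl29, which encodes a protein of the large ribosomal subunit and lies 4.10 Mb from Setd2 (chromosome 9, 106429454 to 106431568). It had 29.98 and 26.03 CPM in CD HO, 166 and 156 CPM in CD HE and 309 and 301 CPM in CD WT (log2 change -2.98, SE 0.083, edgeR adjusted p = 1.92e-09). The level stepped down with the number of CD alleles, and the libraries of each genotype agreed closely. Rpl29 has near-identical copies elsewhere, and 2 of them, annotated as processed pseudogenes, also changed. Gm8210 on chromosome 1 (43189156 to 43189638), which matches the Rpl29 transcript at 99.4% of 483 bases with 3 mismatches, had 24.5 and 24.96 CPM in CD HO, 11.5 and 12.4 CPM in CD HE and 0.12 and 0.083 CPM in CD WT. Gm10709 on chromosome 9 (7751725 to 7752204), which matches it at 99.2% of 480 bases with 4 mismatches, had 0.153 and 0.043 CPM in CD HO, 6.21 and 6.76 CPM in CD HE and 11.4 and 11.2 CPM in CD WT. Gm8210 thus stepped up with the CD allele and Gm10709 stepped down. Rpl29 and the 2 copies together summed to 54.6 and 51.0 CPM in CD HO, 183 and 175 CPM in CD HE and 321 and 313 CPM in CD WT. Reads shared among copies make the level of each uncertain. Against the same-sex control Gm8210 changed by 1.10 and Rpl29 by -2.56.

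**Figure D5:**
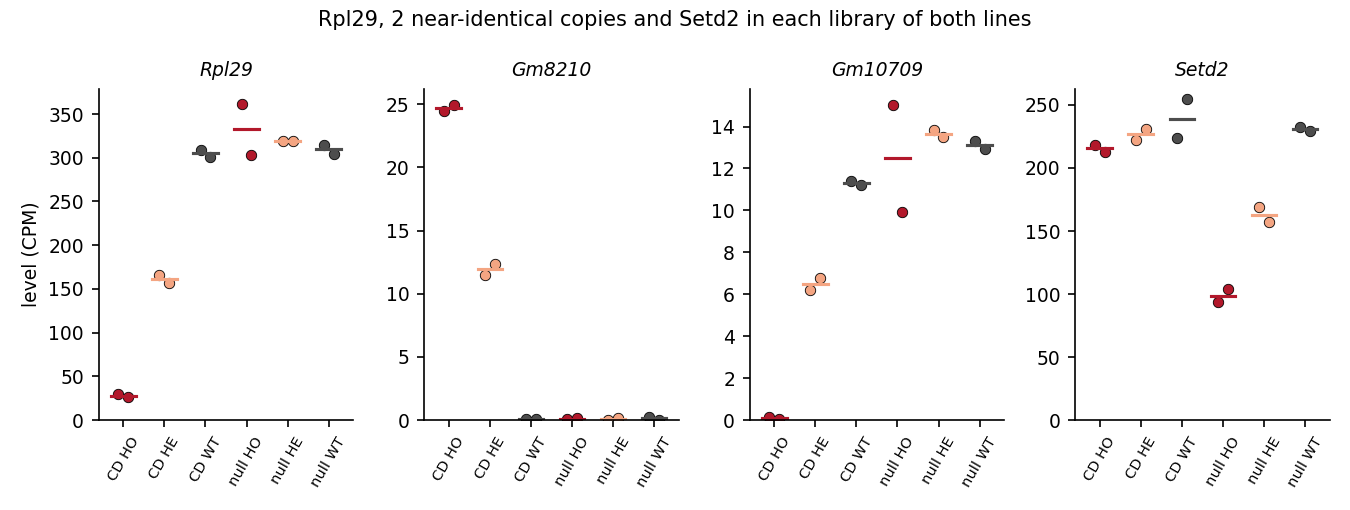
Levels in CPM of Rpl29, its copies Gm8210 and Gm10709, and Setd2 in the 12 embryo libraries, by line and genotype; points are libraries and bars are means of 2. Rpl29 and both copies step with genotype in the CD line and show no such step in the null line, where Setd2 steps instead.

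Other genes near Setd2 stepped with genotype too. Of the 59 genes called within 5 Mb, both CD HE libraries lay between the CD HO and the CD WT pairs for 25 (42.4%), against 818 of all 4845 called genes (16.9%). Ppm1m, a protein phosphatase gene, had 13.4 and 14.6 CPM in CD HO, 20.6 and 20.4 CPM in CD HE and 26.4 and 25.5 CPM in CD WT (log2 change -0.72, SE 0.077, edgeR adjusted p = 6e-05). Lsmem2, a non-coding entry in the annotation, had 3.41 and 3.65 CPM in CD HO, 2.15 and 1.83 CPM in CD HE and 0.522 and 0.625 CPM in CD WT (log2 change 1.72, SE 0.21, edgeR adjusted p = 0.000164). Tma7, a factor of translation, had 77.5 and 82.5 CPM in CD HO, 101 and 97.9 CPM in CD HE and 119 and 114 CPM in CD WT (log2 change -0.43, SE 0.045, edgeR adjusted p = 6.3e-05), and its copy Tma7-ps on chromosome 1, which matches it at 99.0% of 195 bases, had 24.8 and 27.8 CPM in CD HO, 20.1 and 20.7 CPM in CD HE and 10.6 and 11.8 CPM in CD WT. Tma7-ps stepped in the null line too, with 28.41 and 25.66 CPM in null HO, 21.43 and 20.68 CPM in null HE and 11.67 and 11.63 CPM in null WT, and Tma7 was at 85.86 and 83.16 CPM in null HO, against 106.2 to 111.3 CPM in null HE and WT. Against 12.1% higher and 13.2% lower of all genes tested, within 2 Mb of Setd2 10 of 57 were higher (17.5%) and 11 lower (19.3%), and from 2 to 5 Mb 18 (16.1%) and 20 (17.9%) of 112. The counts against the same-sex control were 1 and 6 within 2 Mb and 4 and 4 from 2 to 5 Mb, and with replicate 2 of CD HO left out 1 and 7, and 8 and 11.

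Few genes separated the heterozygotes from WT. Between CD HE and CD WT 3 of 19215 genes were called (0.0156%), against 1693 at an unadjusted p under 0.05 (8.81%). They were Gm8210 (log2 change 6.80, SE 0.37, edgeR adjusted p = 6.4e-06), Rpl29 (-0.92, SE 0.08, edgeR adjusted p = 0.000581) and Tma7-ps (0.87, SE 0.10, edgeR adjusted p = 0.0134). Tma7-ps did not pass without CD WT replicate 2, without either CD HE library or in a fit of the 6 CD libraries alone (edgeR adjusted p = 0.0626 to 0.166). DESeq2's test called 53 genes. Without CD WT replicate 1, which leaves the library with visceral endoderm transcripts as the only WT, edgeR called 844.

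The homozygous effect was then set against that of the null line, by a test of the difference between the effects, as the lines share no libraries. Of 19215 genes 3 differed (0.0156%), with 1898 at an unadjusted p under 0.05 (9.88%), and DESeq2 called 67. Setd2 differed by 0.86 (edgeR adjusted p = 0.00174): null HO libraries held 93.3 and 104.1 CPM and null WT libraries 232 and 229 CPM. Rpl29 differed by -3.06 (edgeR adjusted p = 1.84e-08), with 362 and 303 CPM in null HO and 315 and 304 CPM in null WT. Gm10709 differed by -6.24 (edgeR adjusted p = 1.41e-05), with 15.04 and 9.94 CPM in null HO and 13.3 and 12.9 CPM in null WT. For Gm8210, on chromosome 1, the difference was 4.47 and did not pass (edgeR adjusted p = 0.237). Its level was 24.46 and 24.96 CPM in CD HO and 0.0771 and 0.168 CPM in null HO. For the leading genes of the CD comparison the difference did not pass: it was -0.55 for Trp53inp1, -0.27 for Ccng1, -0.31 for Chac1, -0.42 for Zfp850, 0.13 for Pole and 0.10 for Zik1, with edgeR adjusted p from 0.237 to 0.84. A difference that does not pass does not show that the alleles act alike, and without null HO replicate 1, 764 genes differed. The null HO libraries were 1 with Y-linked transcripts and 1 without. In replicate 1 these summed to 138 CPM, against 257.4 to 277.4 CPM in the other libraries of the male pattern. The pair differed more from each other than any other pair of replicates, with a chi-square per degree of freedom of 17.7 against 2.95 to 13.5 in the other 5 groups. Without CD WT replicate 1, 307 differed.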

How the data were processed

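Whole-embryo RNA was sequenced from 12 libraries, 2 per genotype and line. The authors deposited raw counts per gene for 55421 genes, 55154 of them with an identifier in GENCODE M21. Per the submitters' processing notes the tools were fastp 0.22.0, HISAT2 2.2.1, featureCounts 2.0.1 and DESeq2 1.32.0 on mm10; their roles, the annotation and the strand setting are not stated there. The 12 length-normalised columns and the yolk sac table were not used.

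Libraries were grouped by their titles. Counts were fitted with edgeR 4.0.16 (R 4.3.3, limma 3.58.1) with 1 coefficient per group over all 12 libraries, TMM scaling and filterByExpr (minimum count 10, minimum total 15), which left 19215 genes and 6 residual degrees of freedom at a common coefficient of variation of 0.087. CD HO was tested against the mean of CD HE and CD WT by the quasi-likelihood test, with a Benjamini-Hochberg adjusted p under 0.05 as a call. CD HE was tested against CD WT, and the CD effect against the null effect, in the same fit. CPM are scaled by TMM. The fit was also run on simulated counts in which a small set of genes changed, in CD HO only. That simulation held no outlying control and no sex difference, so it does not cover these features of the data. Alternatives were DESeq2 size factors, no filter, DESeq2 1.42.0, the CD libraries alone, a replicate block, a sex term, other controls and leaving out each library.

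The members and gene lists were chosen with earlier results of these data known. Genes named are Setd2, up to 12 of smallest p each way at 1 log2 unit or more with groups that do not overlap (predicted genes and pseudogenes left out), up to 4 called genes per list role and per further comparison, and those said to have been picked out after their values were seen, which include Slc7a11, the copies of Rpl29 and Tma7, 2410018L13Rik, Mxra8 and the Zfp genes of chromosomes 4 and 17. Some genes that this rule names are not reported here. Symbols changed to dates were restored for 27 genes. Promoters are from RefSeq, GRCm38.p6; copies were aligned with BLAST 2.17.0.

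Total counts of 23414255 to 27674831 limit precision for genes of few counts. Replicates differed by more than counting noise in every group, with a chi-square per degree of freedom of 2.95 to 17.7.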

Additional observations from a re-analysis of the deposited data

Results flagged for a closer look

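The CD HO effect differed from the null HO effect, by the test of that difference in edgeR, for 3 genes, all on chromosome 9. The difference was 0.86 for Setd2 (adjusted p = 0.00174), whose transcript was lower in the null line alone. It was -3.06 for Rpl29 (adjusted p = 1.84e-08) and -6.24 for Gm10709 (adjusted p = 1.41e-05), which were lower in CD HO and not in null HO. Both CD HO libraries lay below both null HO libraries for Rpl29 and Gm10709 and above them for Setd2. Rpl29 and Gm10709 are near-identical over the aligned bases, so the level of each is uncertain.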

How the results depend on the processing

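With a sex term 1167 genes were higher and 1414 lower in CD HO, against 2318 and 2527. Against CD WT alone 1330 were higher, and against the same-sex control 722 were higher and 1041 lower. Leaving out 1 library gave 950 to 2634 higher and 1170 to 2835 lower, with the low ends without CD HO replicate 2 and the high ends without CD WT replicate 2. Of the 185 genes named and called, 123 passed in the same direction against the same-sex control, 132 with the sex term, 133 without CD HO replicate 1, 143 without CD HO replicate 2, and 149 to 185 under the other settings. Xist turned to -0.55 against the same-sex control. CD HE against CD WT gave 3 genes, 695 without the filter, 53 by DESeq2 and 2 to 844 with 1 library left out. The CD against null difference gave 3 genes, 562 without the filter, 67 by DESeq2 and 3 to 764 with 1 library left out; in the CD libraries alone it could not be fitted. The causes were not tested. Deviations of replicate 1 from its group mean were nearly uncorrelated between groups (-0.114 to 0.078). With 2 libraries per group this cannot exclude shared litters or batches. The replicate block gave 2242 higher, 2471 lower, 4 for CD HE against CD WT and 3 for CD against null.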
